A study of Mus musculus with 59 samples.

Results

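The course of the light phase was read from the medial prefrontal cortex of mice by comparing zeitgeber time (ZT) 10, late in the light phase, with ZT2, early in it. ZT counts hours, by convention from lights on, and the light schedule itself is not part of the labels. All libraries titled ZT10 (5 from males and 4 from females) were compared with all titled ZT2 (5 and 5), which is 19 of the 59 libraries of the series. The 10 libraries of ZT6 (5 and 5) stood as the midpoint. Every library was total RNA of homogenised adult brain tissue, given as medial prefrontal cortex, of wild-type C57BL/6J mice, an inbred strain, and neither a treatment nor an altered gene is named. All 4484 genes of the table were considered and 4273 of them had enough reads to be tested. Whether every library stands for a separate mouse is not stated in the labels. The p-values therefore rest on the spread between libraries, part of which may be technical. The titles also carry a number after the sex letter, which repeats within a time and sex, and its meaning is not stated. If it marks a mouse, some libraries share a mouse, and the SEs and p-values may be too small. The replicate numbers used here follow the serial numbers in the titles instead.

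The mammalian clock is a loop of transcription factors: CLOCK and BMAL1 switch on the Per, Cry and Nr1d genes, PER and CRY proteins then block CLOCK and BMAL1, and the REV-ERB receptors made from Nr1d1 and Nr1d2 repress Bmal1. Cells of the cortex run this loop, and much of their RNA also follows sleep, wakefulness and feeding. Chaperones of the endoplasmic reticulum (ER), the compartment where secreted and membrane proteins fold, are controlled as a group by the unfolded protein response, and splicing factors of the hnRNP and SR families act against each other on many exons.

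Expression is given on the authors' log2 scale (scaled read count, plus 1), so a difference of 1 is a doubling. Between 6472180 and 11458200 reads of the table lay behind each of the 19 libraries. Most came from 6 noncoding genes, whose share was 78.1% ± 7.06 (SD, n = 9) at ZT10 and 78.5% ± 4.81 (SD, n = 10) at ZT2 (exact permutation test, two-sided, p = 0.904). All other genes shared 1009789 to 2368152 reads per library, the fewest in ZT10 female replicate 3. The 11 libraries numbered 49 to 60 in the titles stood apart: principal component 1 (24.5% of the variance) averaged -20.9 ± 6.61 (SD, n = 11) in them, while the 4 preceding runs of 12 numbers averaged between -1.43 and 7.48. Scores on that component did not separate ZT10 from ZT2 (exact permutation test, two-sided, p = 0.905). Among markers of neurons, Slc17a7, the vesicular glutamate transporter of cortical excitatory neurons, had a log2 value of 14.78 at ZT2. Gad1, the GABA-producing enzyme of inhibitory neurons, had 11.03. These 2 genes cannot tell the medial prefrontal cortex from other cortex, so the area rests on the label. For striatal projection neurons and for the olfactory bulb 1 marker each was tested. In the table analysed, markers of endothelial cells, choroid plexus and red blood cells had no member. In homogenised tissue, fewer cells of a type and less RNA per cell cannot be told apart.

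From ZT2 to ZT10, 8 of the 4273 genes passed the test (0.187%; limma, Benjamini-Hochberg adjusted p under 0.05). Of these, 3 rose (0.0702%): the clock repressors Nr1d1 and Per1 and the RNA-binding protein gene Hnrnpdl. The other 5 fell (0.117%): the ER chaperone genes Hspa5, Pdia6 and Manf, the small GTPase gene Rasl10a, and Schip1, which encodes a binding partner of the cytoskeletal protein schwannomin. Among all genes tested 332 had an unadjusted p under 0.05 (7.77%), 165 of them higher (3.86%) and 167 lower (3.91%), and the median log2 difference was 0.00. Of the 4273 differences, 2130 were above 0 and 2143 below. Scaling to the total reads of the table, which the 6 noncoding genes dominate, ended all 8 calls (0 genes passed and 55 had an unadjusted p under 0.05) but kept every sign, and the 8 differences had 93.5% to 99.6% of their size. Leaving out the serial numbers 49 to 60 kept the calls of Nr1d1, Hnrnpdl and Rasl10a, with the 8 differences at 87.5% to 108.8% of their size. A fit of the 19 libraries alone kept the calls of Nr1d1, Hnrnpdl and Hspa5, at 96.6% to 101.7%.

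Nr1d1 encodes REV-ERB alpha (ENSMUSG00000020889, chromosome 11, 98767932 to 98775333, minus strand, GRCm38). At ZT2 its log2 values had a lowest of 8.61, a median of 9.29 and a highest of 9.94, and at ZT10 they had 9.51, 10.19 and 10.89. All but 2 of the 9 ZT10 libraries lay above every ZT2 library, so the groups overlapped little. The fitted difference was 0.94 ± 0.15 (SE, 9 against 10 libraries), a 1.92-fold rise (limma, Benjamini-Hochberg adjusted p = 0.000139). In the 9 pairs of libraries that shared both a run of serial numbers and a sex, ZT10 was higher each time, by 0.17 to 1.71. Of its 3077 exonic bases, 263 (8.55%) lie opposite exons of Thra, the thyroid hormone receptor gene on the other strand, and how the counting treated strand is not given in the sources used here.

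Per1 encodes a repressor of CLOCK and BMAL1 that is also switched on by light, cAMP and glucocorticoid signals in many cells (ENSMUSG00000020893, chromosome 11, 69095217 to 69109960, plus strand). Its lowest, median and highest log2 values were 8.78, 9.35 and 10.03 at ZT2 and 9.78, 9.98 and 10.38 at ZT10. Every ZT10 library lay above the ZT2 median, yet only 3 lay above the highest ZT2 library. Per1 rose by 0.60 ± 0.12 (SE), or 1.52-fold (limma, Benjamini-Hochberg adjusted p = 0.00672), with ZT10 higher in 8 of the 9 matched pairs. That call was lost without the run as a block (adjusted p = 0.0764, limma, Benjamini-Hochberg) and without the serial numbers 49 to 60 (adjusted p = 0.133).

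The list of 25 core clock genes had 6 further members among the genes tested, none of which passed. Nr1d2, the gene of REV-ERB beta, came nearest with a difference of 0.35 ± 0.09 (SE; adjusted p = 0.0995, limma, Benjamini-Hochberg). It was higher at ZT10 in 9 of the 9 matched pairs, although its values overlapped widely, from 11.22 to 12.07 at ZT2 and from 11.44 to 12.34 at ZT10. Rora, whose receptor activates the genes that REV-ERB represses, differed by 0.23 ± 0.11 (SE). Differences were 0.08 ± 0.12 for Per3, -0.05 ± 0.17 for Per2 and -0.01 ± 0.08 for Hlf, a PAR-domain transcription factor (SE), all within 1 SE of 0. Leaving out single libraries turned the sign of Per2 in 2 cases and of Hlf in 6 cases out of 19. Of the 8 members 5 were above 0, and their median difference was 0.16 beside 0.00 over all genes tested.

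**Figure D1:**
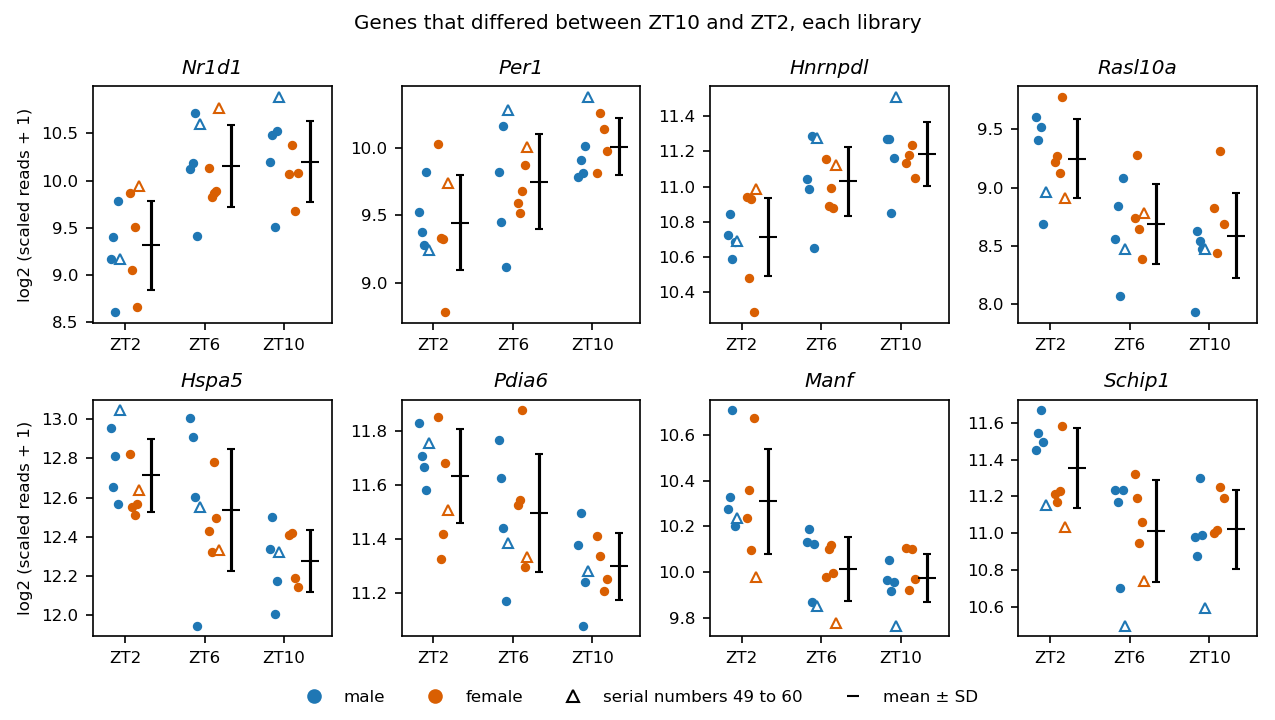
Log2 values of the 8 genes that passed in each library at ZT2, ZT6 and ZT10 (y axis, log2 of the scaled read count plus 1; each panel has its own range). Points are libraries coloured by sex, open triangles mark the serial numbers 49 to 60, and bars give mean ± SD of 10, 10 and 9 libraries; Nr1d1, Per1 and Hnrnpdl lie higher at ZT10 and the other 5 genes lower, with Hspa5 the only panel in which no ZT10 library reaches the ZT2 range.

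Hspa5, Pdia6 and Manf work in the lumen of the ER. Hspa5 encodes BiP, the most abundant Hsp70 chaperone of the ER, which also holds the sensors of the unfolded protein response inactive (ENSMUSG00000026864, chromosome 2, 34771970 to 34777547, plus strand). Its lowest, median and highest log2 values were 12.51, 12.65 and 13.05 at ZT2 and 12.01, 12.32 and 12.50 at ZT10. No ZT10 library reached the ZT2 range. Hspa5 fell by 0.43 ± 0.10 (SE), to 0.744 times its ZT2 level (limma, Benjamini-Hochberg adjusted p = 0.0211), and was lower in 9 of the 9 matched pairs, with differences from -0.81 to -0.13. Between 750 and 3168 reads per library lay behind these values. The call was lost when any of 6 libraries was left out on its own (ZT2 male replicates 1, 3 and 5, ZT10 male replicate 3 and ZT10 female replicates 3 and 4; adjusted p up to 0.0653, limma, Benjamini-Hochberg) and without the serial numbers 49 to 60 (adjusted p = 0.135).

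Groups without any overlap between ZT10 and ZT2 were found for 2 of the 4273 genes (0.0468%), both lower at ZT10. One was Hspa5 and the other Ip6k1, the gene of an inositol hexakisphosphate kinase, which was singled out after its values were seen. Ip6k1 had 11.36, 11.56 and 11.67 at ZT2 and 11.11, 11.31 and 11.36 at ZT10 and differed by -0.26 ± 0.06 (SE; adjusted p = 0.0645, limma, Benjamini-Hochberg). It passed without ZT2 female replicate 2, ZT2 male replicate 5, ZT10 female replicate 4 or ZT10 male replicate 5 (adjusted p from 0.0337 to 0.0441, limma, Benjamini-Hochberg), and with library weights, principal components, voom (a fit on recovered reads) or the stricter filter of a mean of at least 50 reads (0.00149 to 0.0412). Ip6k1 passed in no other setting, nor with any other library left out (adjusted p up to 0.148 in the latter, limma, Benjamini-Hochberg). Matched pairs that all had 1 sign were found for 32 of the 4273 genes (0.749%), among them Nr1d1, Hnrnpdl and Hspa5.

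Pdia6 encodes a protein disulfide isomerase, which rearranges disulfide bonds of folding proteins (ENSMUSG00000020571, chromosome 12, 17266545 to 17284770, plus strand). It went from 11.33, 11.68 and 11.85 (lowest, median, highest) at ZT2 to 11.08, 11.28 and 11.50 at ZT10. Manf encodes a small secreted ER protein that binds BiP (ENSMUSG00000032575, chromosome 9, 106838312 to 106891979, minus strand), and it went from 9.98, 10.26 and 10.71 to 9.77, 9.97 and 10.11. The ranges of the 2 times met in both genes, with 5 of 9 ZT10 libraries below every ZT2 library for Pdia6 and 6 of 9 for Manf. Pdia6 fell by 0.34 ± 0.07 (SE; adjusted p = 0.00829) and Manf by 0.36 ± 0.07 (SE; adjusted p = 0.0081, both limma, Benjamini-Hochberg), and each was lower in 8 of the 9 matched pairs. Both calls were lost with the 19 libraries alone (adjusted p of 0.128 for Pdia6 and 0.206 for Manf, limma, Benjamini-Hochberg) and without the serial numbers 49 to 60 (0.129 for each), and that of Manf also without the block (0.0905). Exons of Manf share 146 of 3524 bases with Dcaf1 and 166 with 4930524O07Rik, both on the opposite strand.

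Of 34 ER chaperone and unfolded protein response genes listed, 12 were tested, and these 3 were the ones that fell; none rose. Their median difference was -0.13 against 0.00 over all genes, 10 of the 12 were below 0, and 6 had an unadjusted p under 0.05 with a negative sign. Besides the 3 that fell, those 6 were Xbp1, Pdia3 and Dnajc3. Over all genes tested, 0.117% were called lower, 2143 of 4273 were below 0 and 3.91% were lower at an unadjusted p under 0.05. Xbp1, the transcription factor that drives ER chaperone genes, differed by -0.39 ± 0.10 (SE; adjusted p = 0.0718, limma, Benjamini-Hochberg), with values from 11.29 to 12.07 at ZT2 and from 10.91 to 11.68 at ZT10. It passed without ZT2 female replicate 1, ZT10 female replicate 1 or 3, or ZT10 male replicate 3 (adjusted p from 0.0325 to 0.0445, limma, Benjamini-Hochberg), with library weights (0.00301), principal components (5.14e-06) or voom (0.0438), and in males alone (0.0346). Xbp1 passed in no other setting, nor with any other library left out (adjusted p up to 0.213 in the latter, limma, Benjamini-Hochberg). Pdia3, another disulfide isomerase, and Dnajc3, a cochaperone of BiP, each differed by -0.16, with SEs of 0.07 and 0.08, and the calcium-binding chaperone gene Calr by -0.07 ± 0.13 (SE). The 2 members above 0 were Ddit3, the gene of the stress factor CHOP, at 0.24 ± 0.18 and Txndc5 at 0.13 ± 0.10 (SE). The count of 10 below 0 held under all 10 alternative settings, and it was 9 or 10 with single libraries left out.

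The promoters of Hspa5 and Pdia6 are shown because both hold the ER stress response element, the sequence through which the unfolded protein response is known to act. It is spelled CCAAT, 9 free bases, CCACG. The motif was added after the values were seen. Each run below is the 250 bases before a RefSeq start site on the coding strand (GRCm38.p6), 5′ to 3′, with CCAAT on either strand (ATTGG on the reverse), the CCACG of the element and, for Per1, the E-box CACGTG in capitals. The Hspa5 run is chr2:34771840-34772089, that of Pdia6 chr12:17266339-17266588 and that of Per1 chr11:69098699-69098948, all on the plus strand.
Hspa5: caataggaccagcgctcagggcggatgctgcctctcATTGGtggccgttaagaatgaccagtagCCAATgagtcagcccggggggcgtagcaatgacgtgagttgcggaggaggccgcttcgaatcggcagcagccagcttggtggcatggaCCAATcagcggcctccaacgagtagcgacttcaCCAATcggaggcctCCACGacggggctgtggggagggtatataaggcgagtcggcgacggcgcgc
Pdia6: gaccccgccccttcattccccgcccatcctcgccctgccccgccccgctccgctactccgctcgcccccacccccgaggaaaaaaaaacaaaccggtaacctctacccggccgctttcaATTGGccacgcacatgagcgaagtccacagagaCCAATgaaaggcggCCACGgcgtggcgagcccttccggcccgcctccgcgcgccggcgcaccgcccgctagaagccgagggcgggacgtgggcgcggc
Per1: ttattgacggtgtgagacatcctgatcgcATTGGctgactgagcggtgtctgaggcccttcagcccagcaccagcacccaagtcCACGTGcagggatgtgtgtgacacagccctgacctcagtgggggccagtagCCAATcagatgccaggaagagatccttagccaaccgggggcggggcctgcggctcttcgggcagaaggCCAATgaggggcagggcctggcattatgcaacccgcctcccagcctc

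In Hspa5 the element lay 65 to 47 bases before the start and in Pdia6 98 to 80 bases. Among 32851 promoter windows of the same length in the RefSeq table, 37 (0.113%) held it on either strand. Of the tested genes with a window (3205 of 4273), 6 held it: Hspa5, Pdia6, Dnajc3, Calr, Xlr3b and Pan2. All 6 were below 0 from ZT2 to ZT10, with a median of -0.25 and 2 called lower. The 3199 without the element had 1586 below 0, a median of 0.00 and 2 called lower. The 2 called lower with it were Hspa5 and Pdia6, and Dnajc3 and Calr are also in the ER chaperone list. The motif was chosen with these values in view, so the counts cannot serve as a test of it. Calr (-0.07 ± 0.13) and Pan2 (-0.04 ± 0.29) lay within 1 SE of 0. Xlr3b belongs to a family of near-identical copies, so its reads are uncertain. The E-box, to which CLOCK and BMAL1 are known to bind, was in 1 of the 2 windows of Per1, 166 to 161 bases before the start, and in 6.02% of all windows. It was not in the window of Nr1d1, and CCAAT alone, which overlaps the longer element, was in 33.8% of all windows. The 312 tested genes that held the E-box had 163 above 0, a median of 0.01 and 1 called higher. No window matched Manf.

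Hnrnpdl, a regulator of splicing that shuttles between nucleus and cytoplasm (ENSMUSG00000029328, chromosome 5, 100033577 to 100039664, minus strand), had lowest, median and highest log2 values of 10.29, 10.71 and 10.98 at ZT2 and 10.85, 11.18 and 11.51 at ZT10. Only 1 ZT10 library lay within the ZT2 range. Its rise was 0.48 ± 0.08 (SE), or 1.40-fold (limma, Benjamini-Hochberg adjusted p = 0.000157), and ZT10 was higher in 9 of the 9 matched pairs, by 0.20 to 0.82. Among the 9 Hnrnp genes tested of 26 listed, Hnrnpdl alone passed. The next were Hnrnpa0 at 0.23 ± 0.09 and Hnrnpl at 0.18 ± 0.07 (SE), at a limma, Benjamini-Hochberg adjusted p of 0.531 and 0.536. The median of the 9 was 0.12, with 6 above 0.

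SR proteins and their relatives of the Tra2 family promote the use of exons. None of the 9 tested of 29 listed passed. Their median was -0.09 and 8 of 9 were below 0, or 7 of 9 without the serial numbers 49 to 60. Srsf10 differed by -0.39 ± 0.13, Srsf7 by -0.38 ± 0.13 and Tra2a by -0.28 ± 0.09 (SE), at a limma, Benjamini-Hochberg adjusted p of 0.284, 0.345 and 0.314. In each of the 3 the ranges overlapped widely, for instance from 10.76 to 11.65 at ZT2 and from 10.23 to 11.36 at ZT10 for Srsf10.

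**Figure D2:**
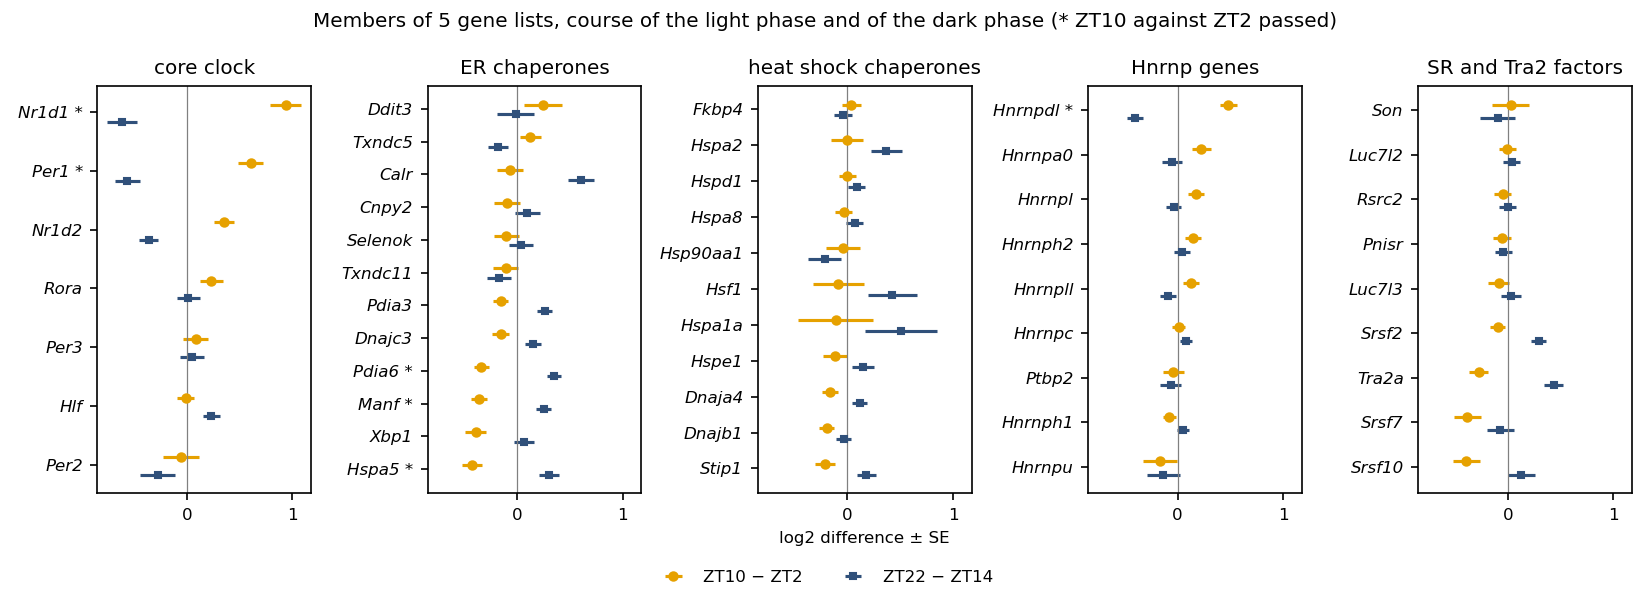
Fitted log2 differences ± SE of the tested members of 5 gene lists (x axis; 7 core clock genes are drawn), for ZT10 minus ZT2 (circles) and ZT22 minus ZT14 (squares). Asterisks mark genes that passed for ZT10 against ZT2: 2 core clock genes and 1 of 9 Hnrnp genes to the right of 0, and 3 of 12 ER chaperone genes to the left, while no heat shock or SR and Tra2 gene passed.

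Rasl10a, which encodes a Ras-like GTPase found in brain (ENSMUSG00000034209, chromosome 11, 5058128 to 5060385, plus strand), had log2 values with a lowest of 8.69, a median of 9.25 and a highest of 9.78 at ZT2 and of 7.93, 8.54 and 9.32 at ZT10. Of the 9 ZT10 libraries, 7 lay below every ZT2 library. It fell by 0.66 ± 0.13 (SE), to 0.631 times its ZT2 level (limma, Benjamini-Hochberg adjusted p = 0.00672), on 74 to 282 reads per library, and the call was lost with the 19 libraries alone (adjusted p = 0.148). Schip1 (ENSMUSG00000027777, chromosome 3, 68064802 to 68626481, plus strand) went from 11.03, 11.34 and 11.67 at ZT2 to a lowest of 10.59 and a highest of 11.30 at ZT10, and the ranges met in 3 of the 9 ZT10 libraries. It fell by 0.37 ± 0.08 (SE; adjusted p = 0.0081, limma, Benjamini-Hochberg). Each was lower in 8 of the 9 matched pairs. For Schip1 the call was lost without the block (adjusted p = 0.298, limma, Benjamini-Hochberg), with the 19 libraries alone (0.124) and without the serial numbers 49 to 60 (0.135). It shares 1997 of 5102 exonic bases (39.1%) with Iqschfp, a read-through gene on the same strand, so its value is uncertain.

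Other lists held few or no called genes between ZT10 and ZT2. Of 11 heat shock chaperone genes none passed, and 10 were below 0, led by Dnajb1 at -0.20 ± 0.07 and Stip1 at -0.21 ± 0.10 (SE). That count was 7 to 10 over the alternative settings and 6 to 11 with single libraries left out. Over all genes tested 2143 of 4273 were below 0. Among 18 immediate early genes, which neurons switch on within minutes of activity, Per1 alone passed, and the median was -0.07. Homer1, a scaffold of the postsynapse with an activity-induced short form, differed by -0.40 ± 0.10 (SE; adjusted p = 0.068, limma, Benjamini-Hochberg), with values from 12.99 to 13.75 at ZT2 and from 12.41 to 13.22 at ZT10. It passed without ZT2 male replicate 1 or 4, ZT2 female replicate 1 or 3, ZT10 male replicate 3 or ZT10 female replicate 1 (adjusted p from 0.0135 to 0.0472, limma, Benjamini-Hochberg), and with library weights, principal components or scaling to the reads outside the 6 noncoding genes (0.00942 to 0.0388). Homer1 passed in no other setting, nor with any other library left out (adjusted p up to 0.15 in the latter, limma, Benjamini-Hochberg). Srf, the factor that drives many immediate early genes, differed by -0.32 ± 0.10 (SE; adjusted p = 0.168, limma, Benjamini-Hochberg). Among 6 glucocorticoid-induced genes Per1 was again the one that passed.

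None of 12 cholesterol genes passed; their median was 0.09, with 10 above 0. Among 22 potassium channel genes none passed and 17 were above 0 (14 to 17 over the alternative settings, where the stricter filter left 18 genes). With single libraries left out 13 to 19 were above 0. Kcnj4, an inward rectifier of the postsynapse, differed by 0.28 ± 0.08 and Gabbr1, a GABA-B receptor subunit, by 0.21 ± 0.07 (SE), at a limma, Benjamini-Hochberg adjusted p of 0.175 and 0.39. Cytosolic and mitochondrial ribosomal protein genes had medians of -0.07 and -0.05, with no member of either 31 called. Nor did a cell type marker pass: 6 tested for glutamatergic neurons, 17 for GABAergic neurons, 6 for astrocytes and 6 for microglia, with medians of 0.06, 0.08, -0.04 and -0.15. The summed scaled read count of the 6 microglia markers ran from 1890 to 2530 at ZT2 and from 1450 to 2588 at ZT10, and its part in the results was not tested.

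The midpoint at ZT6 was set beside ZT2 and ZT10. Its differences share libraries with ZT10 minus ZT2, so they stand beside each other as values only. Between ZT2 and ZT6, 8 genes passed (0.187%), 2 higher (0.0468%) and 6 lower (0.14%), and between ZT6 and ZT10 1 gene passed (0.0234%). By ZT6 the fitted difference was 89% of that at ZT10 for Nr1d1, 93.2% for Schip1, 84.6% for Rasl10a and 82.3% for Manf. It was 65.3% for Hnrnpdl and 50.1% for Per1. For Pdia6 and Hspa5 it was 40.3% and 41.1%. Their steps before and after ZT6 were -0.14 ± 0.07 and -0.20 ± 0.07 for Pdia6 (SE). For Hspa5 they were -0.18 ± 0.09 and -0.25 ± 0.10 (SE), so neither gene had steps that differed beyond their errors. No test of the midpoint against the mean of ZT2 and ZT10 passed for any of these 8 genes.

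Nr1d1, Schip1 and Rasl10a were already called at ZT6 against ZT2, at 0.84 ± 0.14, -0.34 ± 0.07 and -0.56 ± 0.13 (SE). The other 5 called genes were Banp, a DNA-binding regulator, at -0.75 ± 0.15, Slc25a28, a mitochondrial iron importer, at -0.54 ± 0.11, Omg, a glycoprotein of myelin and neurons, at 0.44 ± 0.09, Xbp1 at -0.45 ± 0.10 and Arc, an immediate early gene of synapses, at -0.70 ± 0.15 (SE). Adjusted p ran from 0.00102 for Nr1d1 to 0.0314 for Rasl10a (limma, Benjamini-Hochberg). At ZT10 against ZT2 Arc differed by -0.37 ± 0.15 (SE; adjusted p = 0.536, limma, Benjamini-Hochberg), and its median and highest values were 10.27 and 10.70 at ZT2, 9.58 and 10.04 at ZT6 and 9.96 and 10.77 at ZT10. Of the 9 ZT10 libraries 6 still lay below every ZT2 library, and ZT10 was lower in 8 of the 9 matched pairs. Calls of Nr1d1, Banp and Slc25a28 remained with each of the 20 libraries left out in turn. Without ZT2 female replicate 4 they were the 3 that passed. Without ZT6 male replicate 3 or ZT2 male replicate 3, 4 and 5 genes passed, and without ZT2 or ZT6 female replicate 1 (14 each) or ZT6 male replicate 4 or ZT6 female replicate 2 (13 each) more did. Leaving out the serial numbers 49 to 60 or scaling to total reads ended all 8 calls, and 1 gene, Arc, passed in a fit of these libraries alone. Without the block the calls of Schip1 and Xbp1 were lost (adjusted p = 0.278 and 0.294, limma, Benjamini-Hochberg), and with library weights those of Rasl10a (0.118), Arc (0.198) and Omg (0.0954).

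ZT6 male replicate 5 on its own also carried the calls of Schip1 and Rasl10a, and ZT2 male replicates 1 and 2, ZT6 male replicate 1 and ZT6 female replicates 3 and 4 each that of Rasl10a. Shc1, an adaptor of growth factor receptors (ENSMUSG00000042626), was the 1 gene called between ZT6 and ZT10. Its lowest, median and highest values were 6.56, 7.04 and 7.71 at ZT2, 6.01, 6.31 and 7.28 at ZT6 and 6.78, 7.43 and 7.79 at ZT10, on 17 to 80 reads per library. It rose by 0.87 ± 0.17 (SE; adjusted p = 0.0123, limma, Benjamini-Hochberg) after ZT6. That call was lost without ZT6 male replicate 1, ZT10 male replicate 4 or 5 or ZT10 female replicate 4 (adjusted p up to 0.113, limma, Benjamini-Hochberg), when no gene passed, and 2 genes passed without ZT6 female replicate 1 or ZT10 male replicate 1. At ZT6 Shc1 differed from the mean of ZT2 and ZT10 by -0.75 ± 0.14 and Banp by -0.68 ± 0.13 (SE), the 2 genes (0.0468%) that passed (adjusted p = 0.00546 for each, limma, Benjamini-Hochberg), and 4 passed without ZT6 female replicate 1.

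Some lists without a called gene, singled out after their values were seen, lay mostly to 1 side of 0 at ZT6. All 31 cytosolic ribosomal protein genes were below 0 from ZT2 to ZT6, with a median of -0.28 and 10 at an unadjusted p under 0.05, and all 31 were above 0 from ZT6 to ZT10, with a median of 0.21. Over all genes tested 2196 of 4273 were below 0 from ZT2 to ZT6, with a median of -0.01. At an unadjusted p under 0.05, 243 of the 4273 were lower at ZT6 than at ZT2 and 268 were higher (limma). Of 34 nuclear genes of the respiratory chain 29 were below 0 and then 30 above, with medians of -0.14 and 0.14. The 6 astrocyte markers were all below 0 and then all above (-0.31 and 0.29), and the 6 microglia markers were all below 0 and then 5 above (-0.27 and 0.16). Other lists lay mostly above 0 from ZT2 to ZT6. These were 4 of 4 GABA receptor, 8 of 9 sodium and calcium channel and 17 of 22 potassium channel genes, with medians of 0.20, 0.17 and 0.11. Of the 6 glutamatergic neuron markers 5 were above 0, with a median of 0.14. The summed scaled read count of the astrocyte markers ran from 14116 to 21527 at ZT2, from 7652 to 21681 at ZT6 and from 15363 to 20670 at ZT10, so the ranges overlapped. With the first 2 principal components as covariates the medians from ZT2 to ZT6 were -0.03 for the ribosomal (23 of 31 below 0), -0.01 for the respiratory chain (20 of 34), -0.07 for the astrocyte and -0.08 for the microglia genes (5 of 6 each). Scaling to total reads moved the median of all genes to 0.13 and left 30 of 31, 15 of 34, 5 of 6 and 6 of 6 below 0.

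The sexes were fitted apart in a model of time by sex. In males 9 genes passed for ZT10 against ZT2 (0.211%), 6 of them among the 8 above, and in females 1 (0.0234%), Dzip1l. For the difference between the sexes 0 genes passed (0%; limma, Benjamini-Hochberg), 2.9% had an unadjusted p under 0.05, and limma voom on recovered reads also gave 0, with 2.64% at an unadjusted p under 0.05. The 8 genes had the same sign in both sexes, and in 7 of them the difference was larger in males. Nr1d1 differed by 1.09 ± 0.20 in males and 0.75 ± 0.22 (SE) in females, Hspa5 differed by -0.54 ± 0.13 and -0.31 ± 0.13, and Per1 by 0.53 ± 0.17 and 0.68 ± 0.18. Dzip1l, a gene of the primary cilium, differed by 0.03 ± 0.16 in males and 1.04 ± 0.17 (SE) in females, and the difference of -1.01 ± 0.23 did not pass (adjusted p = 0.28, limma, Benjamini-Hochberg). With the first 2 principal components as covariates 3 genes passed, Dzip1l among them (adjusted p = 0.0218, limma, Benjamini-Hochberg).

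The same span of 8 h in the dark phase, from ZT14 to ZT22, uses other libraries and gave 38 called genes (0.889%). The difference between the courses, ZT10 minus ZT2 against ZT22 minus ZT14, was called for 59 genes (1.38%), 29 higher in the light course (0.679%) and 30 lower (0.702%). With values scaled to the reads outside the 6 noncoding genes these were 18 and 28. In all 59 the courses had opposite signs, which this contrast favours. The 8 genes called between ZT10 and ZT2 were among them, and 26 were also called between ZT22 and ZT14. Both of these differences are part of the contrast, so neither overlap is separate support. Scaling to total reads ended all 59 calls, and 27 genes passed without the serial numbers 49 to 60.

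Nr1d1 had 0.94 ± 0.15 in the light course and -0.61 ± 0.14 in the dark course (SE), and Per1 had 0.60 ± 0.12 and -0.56 ± 0.12. Hnrnpdl had 0.48 ± 0.08 and -0.40 ± 0.08. Of the ER chaperone genes Pdia6 had -0.34 ± 0.07 and 0.35 ± 0.07, Manf -0.36 ± 0.07 and 0.25 ± 0.07, and Hspa5 -0.43 ± 0.10 and 0.31 ± 0.09 (SE). Their adjusted p for the difference ran from 1.85e-07 for Hnrnpdl to 0.000544 for Hspa5 (limma, Benjamini-Hochberg). Rasl10a had -0.66 and 0.36. Schip1, with -0.37 ± 0.08 and 0.06 ± 0.07 (SE), was the one of the 8 with a dark course within 1 SE of 0, and its call was lost without the block (adjusted p = 0.267, limma, Benjamini-Hochberg) and without the serial numbers 49 to 60 (0.102).

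Members that had missed the threshold for ZT10 against ZT2 also passed here. Nr1d2 was the third core clock gene of 8 called higher, beside 0.679% of all genes tested. It had 0.35 in the light course and -0.36 in the dark course (adjusted p = 0.000617, limma, Benjamini-Hochberg). Pdia3 (-0.16 and 0.26) and Calr (-0.07 and 0.61) passed at a limma, Benjamini-Hochberg adjusted p of 0.0152 and 0.0334. They brought the ER chaperone genes called lower in this contrast to 5 of 12, beside 0.702% of all genes tested. Calr lay within 1 SE of 0 in the light course (-0.07 ± 0.13) and rose in the dark course (0.61 ± 0.12, SE). The call of Calr was lost without the block (adjusted p = 0.162, limma, Benjamini-Hochberg) and when any of 12 libraries was left out (ZT2 male replicate 4 and female replicate 1, ZT10 male replicate 3 and female replicates 1, 3 and 4, ZT14 male replicate 2, ZT22 male replicates 2, 3 and 4 and female replicates 1 and 4). Both calls were lost without the serial numbers 49 to 60 (0.0804 for Pdia3 and 0.0634 for Calr). Of the 9 SR and Tra2 genes, 2 were called lower, beside 0.702% of all genes tested. They were Tra2a (-0.28 and 0.44, adjusted p = 0.000544) and Srsf2 (-0.10 and 0.29, adjusted p = 0.0298, both limma, Benjamini-Hochberg). For Srsf2 the call was lost without the serial numbers 49 to 60 (adjusted p = 0.0602, limma, Benjamini-Hochberg), with voom (0.0511) and without ZT2 female replicate 4, ZT10 male replicate 1, ZT10 female replicate 3 or 4 or ZT14 male replicate 2. Exons of Srsf2 share 460 of 2958 bases with Mettl23 and 288 with Mfsd11, both on the opposite strand.

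Homer1 (-0.40 and 0.25), Srf (-0.32 and 0.29) and Ip6k1 (-0.26 and 0.21) were called lower in the light course, and Kcnj4 (0.28 and -0.27) higher, with adjusted p from 0.000682 for Ip6k1 to 0.00493 for Srf (limma, Benjamini-Hochberg). Junb, an AP-1 transcription factor gene, was called higher (0.10 and -0.58, adjusted p = 0.0312, limma, Benjamini-Hochberg). The 18 immediate early genes thus had 2 called higher, Per1 and Junb, and 2 lower, Homer1 and Srf. Over all genes tested 0.679% were called higher and 0.702% lower. Junb lost its call without the serial numbers 49 to 60 (adjusted p = 0.141, limma, Benjamini-Hochberg), with values scaled to the reads outside the 6 noncoding genes (0.0505) and when any of 10 libraries was left out (ZT2 male replicate 5 and female replicates 1 and 3, ZT10 male replicate 3 and female replicate 2, ZT14 male and female replicate 5, ZT22 male replicate 4 and female replicates 1 and 4; up to 0.0726). Without the serial numbers 49 to 60 the calls of Homer1 (adjusted p = 0.0624, limma, Benjamini-Hochberg) and Kcnj4 (0.0593) were lost. Cyth4, expressed in microglia, had -0.59 ± 0.27 and 1.08 ± 0.26 (SE; adjusted p of the difference 0.00677, limma, Benjamini-Hochberg). It was the 1 called of the 6 microglia markers tested, beside 0.702% of all genes called lower. The differences of the 6 markers between the courses had a median of -0.46 with 5 of 6 below 0. None of the 6 astrocyte markers was called, and their differences had a median of -0.34 with 5 of 6 below 0, beside -0.36 for the 12 ER chaperone genes; the part of either marker list in the ER chaperone result was not tested.

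**Figure D3:**
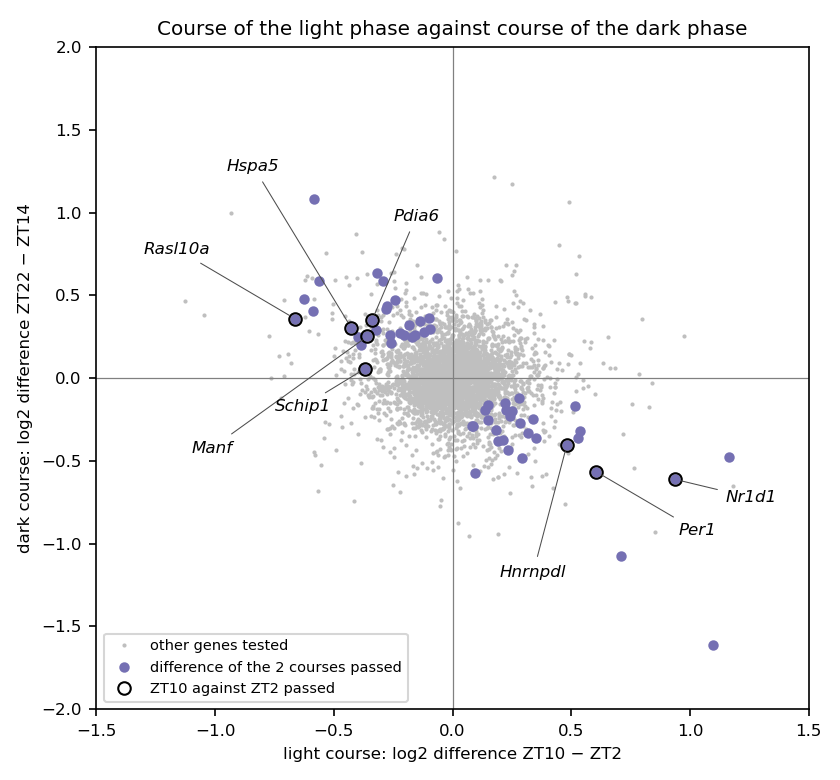
Fitted log2 difference from ZT2 to ZT10 (x axis) against that from ZT14 to ZT22 (y axis) for 4037 genes with a mean log2 value of at least 5. Filled points are 58 of the 59 genes whose courses differed, all with opposite signs on the axes, rings mark the 8 genes called for ZT10 against ZT2, and the other called gene lies under the level shown.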

How the data were processed

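Total RNA was extracted with Qiagen RNeasy Plus Micro kits and made into libraries with a stranded total RNA kit (Takara SMART), per the labels' protocols. The values are log2 of a scaled read count plus 1, as the authors deposited them; the submitters' processing notes name FastQC, HTSeq, DESeq2 and GRCm38. The aligner, annotation, strand setting and tool versions are not given in the sources used here. The low values returned whole reads for 100% of values (within 0.05), and these gave depth, filters and one alternative.

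A gene entered the tests where 4 or more libraries held 10 or more of its reads (4273 of 4484 genes). The test was limma 3.58.1 (R 4.3.3) on the log2 values of all 59 libraries, with terms for each time, sex and run of 12 serial numbers in the titles (48 residual degrees of freedom) and Benjamini-Hochberg adjustment at 0.05 over all genes tested. Sexes were compared in a fit of time by sex. Gene models were GENCODE M21 (4465 IDs matched by symbol) and promoter windows RefSeq's. Python 3.11.15 with numpy 2.4.6, pandas 2.3.3, scipy 1.17.1 and matplotlib 3.10.9 made the summaries.

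The runs were kept as a block although the labels do not say what a serial number marks. Residuals of libraries from one run correlated with a mean r of 0.107 (319 pairs of libraries) against -0.026 between runs (1276 pairs), which came mainly from the serial numbers 49 to 60 (0.408; 0.0207 to 0.0679 in the other runs). None of 56 pairs of libraries of 1 time and sex agreed within sampling noise (chi-square per degree of freedom at least 10.6). These 56 do not cover all such pairs of the 59 libraries.

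The scripts were tested on data of known changes before use.

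The 34 gene lists (30 with tested genes, 310 genes) and the comparison were chosen with earlier results of these data known. Named are all tested members of the core clock list, the called genes with a mean log2 value of at least 5, from every other list the members of smallest p (up to 4, or 2 for marker lists), and the 5 called genes with the smallest p of each other contrast; Ip6k1, Arc, Pdia3, Dnajc3, Calr, Txndc5, Dzip1l, Pan2, Xlr3b and Junb fall outside this rule and were picked with their values in view. A few genes that the rule names are not reported here. Alternatives were no run term, only the times compared, library weights, the first 2 principal components as covariates, voom, scaling to total reads with and without 6 abundant noncoding genes, no filter or a mean of at least 50 reads, leaving out serial numbers 49 to 60, and leaving out each library in turn.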

Additional observations from a re-analysis of the deposited data

Results flagged for a closer look

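In 2 of 54 groups examined (the called genes within each time and sex, groups of 4 or 5 libraries), 1 library stood far from the others by Dixon's criterion, which chance meets in about 1 in 20 groups. Manf in males at ZT2 had 10.7 in replicate 3, where the other 4 lay between 10.2 and 10.3 (gap over range 0.752). Rasl10a in males at ZT10 had 7.93 in replicate 1, where the other 4 lay between 8.47 and 8.62 (gap over range 0.778). Both genes remained called for ZT10 against ZT2 without that library.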

How the results depend on the processing

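The 8 calls between ZT10 and ZT2 depended on the settings. The fit without the run block gave 5, the compared times alone 3, library weights 27, the first 2 principal components as covariates 71, scaling to total reads 0, and leaving out serial numbers 49 to 60 3; leaving out single libraries gave 7 to 13, with 13 without ZT10 male replicate 3. For ZT6 against ZT2 (8 calls) the counts were 1 with the compared times alone, 12 with voom, 0 with total reads, 0 without serial numbers 49 to 60 and 3 to 14 with single libraries left out. For ZT10 against ZT6 (1 call) they were 0 with the compared times alone, the principal components, total reads, the stricter filter or without serial numbers 49 to 60, and 0 to 2 with single libraries left out. For ZT6 against the mean of ZT2 and ZT10 (2 calls), they were 1 with the compared times alone, library weights, principal components or the stricter filter, 0 with total reads or without serial numbers 49 to 60, and 2 to 4 with single libraries left out. For the sexes (0 calls) principal components gave 3, and single libraries left out gave 0. For light against dark, where 1.38% of genes were called, the share was 0.936% without the run block, 2.64% with library weights, 5.69% with principal components, 0% with total reads, 0.632% without serial numbers 49 to 60, and 1.1% to 1.57% with single libraries left out. The cause was not tested, beyond that some settings hold fewer libraries.

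The noncoding share differed by -0.334 points, by -1.96 to 1.05 with single libraries left out. Leaving out single libraries turned the signs of Per2 (-0.148 to 0.047), Hlf (-0.054 to 0.036) and Calr (-0.147 to 0.00576) between ZT10 and ZT2. Scaling to total reads moved the median of all genes by 0.127 for ZT6 against ZT2, by -0.123 for ZT10 against ZT6 and by 0.606 for the sexes. Shc1 rested on 17 to 80 reads per library, and whether depth limited its result was not tested.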
